A study of Mus musculus with 6 samples.

Results

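Immunoglobulin acts on other cells through receptors for its constant (Fc) part, and 8 mouse genes of this kind were followed in stroke infarcts, chosen by symbol from the 46078 genes in the count files. They were the 4 Fc gamma receptors Fcgr1, Fcgr2b, Fcgr3 and Fcgr4, the shared signaling chain Fcer1g, the Fc receptor-like gene Fcrls, and the transport receptors Fcgrt and Pigr. RNA-Seq was performed on 3 infarcts and 3 samples of contralateral cortex, taken 7 weeks after stroke from wild-type male C57BL/6J mice that were 3 months old. Stroke was made by permanent occlusion of the distal middle cerebral artery followed by hypoxia, in 1 hemisphere, so both regions came from animals with a stroke, and no sample of a mouse without stroke entered the comparison. Each library held whole tissue with all of its cell types, either an infarct located by eye or the control area of cortex opposite. The sources used here do not say which infarct and which contralateral cortex shared an animal, or whether the 3 libraries of a region were 3 mice, so p values measure the spread between these libraries.

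The classical Fc gamma receptors bind IgG that coats a target and lead myeloid cells to engulf it or to release mediators. Fcgr1 encodes the high-affinity receptor, and Fcgr3 and Fcgr4 encode activating receptors of lower affinity. All of these signal through the immunoreceptor tyrosine-based activation motif (ITAM) of the FcR gamma chain, the product of Fcer1g. Fcgr2b encodes the inhibitory receptor, which carries an inhibitory motif of its own. Fcgrt encodes the heavy chain of the neonatal Fc receptor (FcRn), which pairs with beta-2 microglobulin and returns IgG from endosomes to the cell surface, and Pigr encodes the epithelial receptor that carries polymeric IgA and IgM across the cell. Fcrls is known as a microglial transcript.

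All 7 members with enough counts to be tested rose in infarcts, none fell, and for each of them the lowest infarct library lay above the highest contralateral library. Their log2 fold changes ran from 2.18 for Fcrls to 9.07 for Fcgr4, with adjusted p values from 1.64e-07 to 6.06e-06 in edgeR's quasi-likelihood test adjusted with the Benjamini-Hochberg method over 15554 tested genes. Pigr was near 0 in all libraries and was not tested. A rise was common in this tissue. At an adjusted p under 0.05 and a log2 fold change beyond 1, 25.7% of tested genes were higher in infarcts and 20.9% were lower, and the libraries of both regions did not overlap in 72.3%. Ordered by fold change among the 3999 genes called higher, Fcgr4 stood at rank 68, Fcgr2b at 541, Fcgr1 at 600, Fcer1g at 623, Fcgr3 at 937, Fcgrt at 1481 and Fcrls at 2257. In bulk tissue a change in the number of cells of a type cannot be told apart from a change in the RNA per cell.

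**Figure D1:**
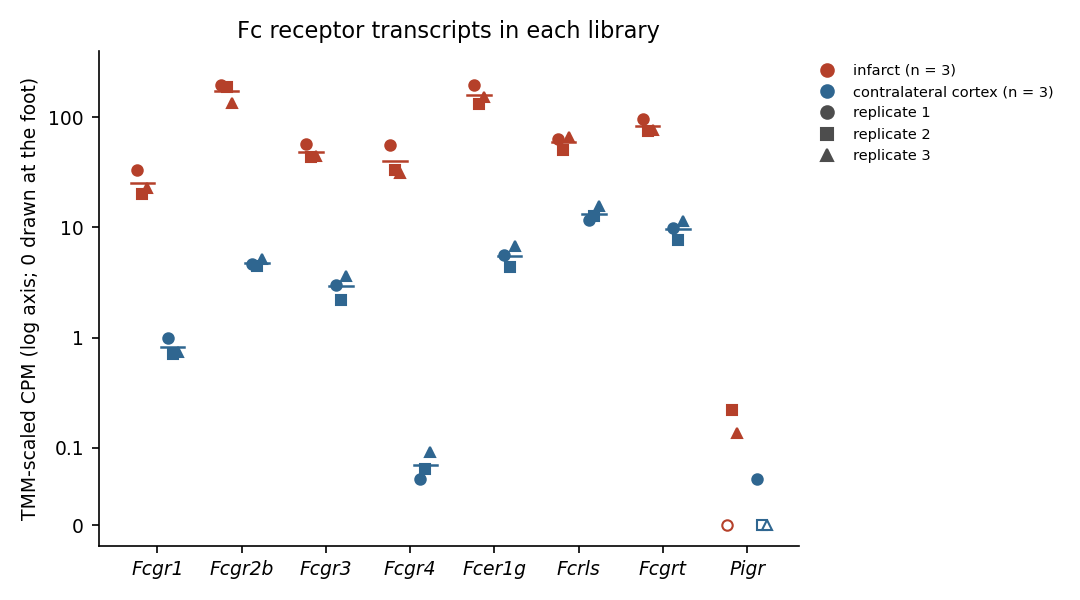
Level of each of the 8 genes in each library, in TMM-scaled CPM (log axis, 0 drawn at the foot). Red points are the 3 infarcts, blue points the 3 contralateral cortices, marker shapes are replicate numbers and horizontal lines are region means of the 7 tested genes. The regions are apart for every gene except Pigr, and the gap is widest for Fcgr4.

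The libraries carried 12146959, 12507336 and 13427057 counts on genes in infarcts 1, 2 and 3, and 19933962, 16610299 and 11943570 in the contralateral cortices. The tissue labels were checked against cell type markers. All 8 cortical neuron markers were called lower in infarcts, with a median log2 fold change of -3.18. Of 6 astrocyte markers, 2 were called higher, 1 lower and 3 not called, with a median of 0.11. They ran from the glutamate transporter Slc1a2, called lower at -2.07, to the filament gene Gfap, called higher at 4.81. Pan-myeloid markers were called higher in 9 of 9, with a median of 4.80, beside a median of 0.03 over all tested genes. Levels are given as counts per 1e6 counts on genes, scaled with TMM (CPM). Their summed level was 10972, 9040.1 and 6813 CPM in infarcts 1 to 3 and 223, 191 and 254 CPM in the contralateral cortices, with Lyz2 the most abundant in infarcts and Csf1r in contralateral cortex, and none of the 9 was at 0. Both the myeloid sum and most Fc receptors were highest in infarct 1. The part of myeloid cell content in the receptor changes was not tested.

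Among the activating receptors, Fcgr4 had the widest gap between the regions. Its counts were 709, 452 and 454 in infarcts and 1 in each contralateral cortex, which is 56.5, 33.2 and 31.0 CPM against 0.0522, 0.0651 and 0.0923 CPM. Infarct 1 was the highest, and contralateral cortex was close to no detection. The ratio of summed counts scaled by library size was 598, with an exact 95% interval of 204 to 2902 that covers counting error only. The fitted log2 fold change of 9.07 (SE 0.44, edgeR adjusted p 2.66e-07) depends on the prior count because so few contralateral reads were seen. Fcgr4 lies on the plus strand at chr1:171018920-171029761 of GRCm38.

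Fcgr1, the receptor with high affinity for monomeric IgG, was measured at 33.1, 20.05 and 22.7 CPM in infarcts and 0.992, 0.716 and 0.738 CPM in contralateral cortex. The infarct mean was 25.3 ± 6.87 CPM and the contralateral mean 0.816 ± 0.154 CPM (SD, n = 3 each), for a log2 fold change of 4.91 (SE 0.29, edgeR adjusted p 7.08e-07). The lowest infarct, at 20.05 CPM, lay far above the highest contralateral library, at 0.992 CPM. The contralateral values rest on 19, 11 and 8 counts. Fcgr1 is on the minus strand at chr3:96282909-96293969.

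Fcgr3, an activating receptor that NK cells and mast cells use as well as myeloid cells, was already detected in contralateral cortex. Its values were 56.6, 43.6 and 44.2 CPM in infarcts and 2.98, 2.21 and 3.60 CPM in contralateral cortex, where it had 57, 34 and 39 counts. The means were 48.1 ± 7.30 and 2.93 ± 0.694 CPM (SD, n = 3 each), and the log2 fold change was 4.05 (SE 0.23, edgeR adjusted p 5.56e-07). This was the smallest change of the 4 Fc gamma receptors.

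Fcgr2b, the inhibitory receptor, was present at 195, 188 and 135 CPM in infarcts and 4.70, 4.49 and 5.17 CPM in contralateral cortex. Infarct 3 was the lowest of the infarcts, and the contralateral libraries were close together. The means were 173 ± 32.5 and 4.79 ± 0.346 CPM (SD, n = 3 each), with a log2 fold change of 5.17 (SE 0.20, edgeR adjusted p 1.64e-07). Fcgr2b, Fcgr4, Fcgr3 and Fcer1g follow one another along chromosome 1, at chr1:170958617-170976547, chr1:171018920-171029761, chr1:171051174-171064935 and chr1:171229572-171234365, with Fcgr4 alone on the plus strand. A transcript on the other strand of Fcgr2b, Gm38204, covers 2.68% of its exon bases and had 0 counts in all 6 libraries.

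The inhibitory and the activating low-affinity receptor share part of their coding sequence, which bears on how well their reads can be told apart. A run of 129 coding bases, over 2 exons in each gene, is identical in Fcgr2b (chr1:170966674-170968081) and Fcgr3 (chr1:171054167-171057792), in coding sequences of 1020 and 801 bases of GENCODE M21 transcripts on GRCm38, where it lies in the minus strand. It is shown because reads inside it do not belong to either gene alone.
Fcgr2b and Fcgr3: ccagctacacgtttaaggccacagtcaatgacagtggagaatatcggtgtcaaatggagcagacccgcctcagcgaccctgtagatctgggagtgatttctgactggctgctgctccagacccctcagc
In windows of 75 bases, the length of 1 read, 94 of 1733 windows of Fcgr3 (5.42%) were also in Fcgr2b, and 313 of 5768 windows of Fcgr2b (5.43%) were in some other gene, of which 103 were in another member. No window of Fcgr1, Fcgr4, Fcer1g, Fcrls or Fcgrt was found in another gene. Reads that align to more than 1 place were not counted, so a read pair that lies wholly in such a stretch adds to neither gene in either region.

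The ratio of Fcgr3 to Fcgr2b, an activating against the inhibitory receptor, was taken within each library. For each count of Fcgr2b there were 0.290, 0.232 and 0.327 counts of Fcgr3 in infarcts and 0.633, 0.493 and 0.696 in contralateral cortex. All 3 infarcts were below all 3 contralateral cortices. The log2 ratio was -1.83 ± 0.25 in infarcts and -0.73 ± 0.26 in contralateral cortex (SD, n = 3 each), a difference of -1.10 or 2.14-fold, with p = 0.1 in a two-sided exact permutation test, the smallest p that 3 against 3 libraries allow. When the 3 activating receptors were summed per length of exon and set against Fcgr2b, the log2 difference between regions was -0.09 with overlapping libraries (exact permutation p = 0.6).

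The makeup of the 4 Fc gamma receptor transcripts, as shares of their summed CPM per kilobase of exon, was led by Fcgr3 in contralateral cortex. Fcgr4 made up 36.3%, 28.8% and 30.0% in infarcts and 1.41%, 2.18% and 2.21% in contralateral cortex. Fcgr3 made up 26.3%, 27.4% and 31.0% in infarcts and 58.1%, 53.6% and 62.4% in contralateral cortex. These groups did not overlap, whereas the shares of Fcgr2b, 30.3 ± 4.42% and 29.0 ± 3.15%, and of Fcgr1, 9.80 ± 1.19% and 11.1 ± 2.26% (SD, n = 3 each), did. These shares are a description, with no test, and depend on the length used. With the longest transcript in place of all exon bases, the mean infarct level of Fcgr2b was 48.7, above 35.7 for Fcgr3 and 32.0 for Fcgr4, in CPM per kilobase.

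**Figure D2:**
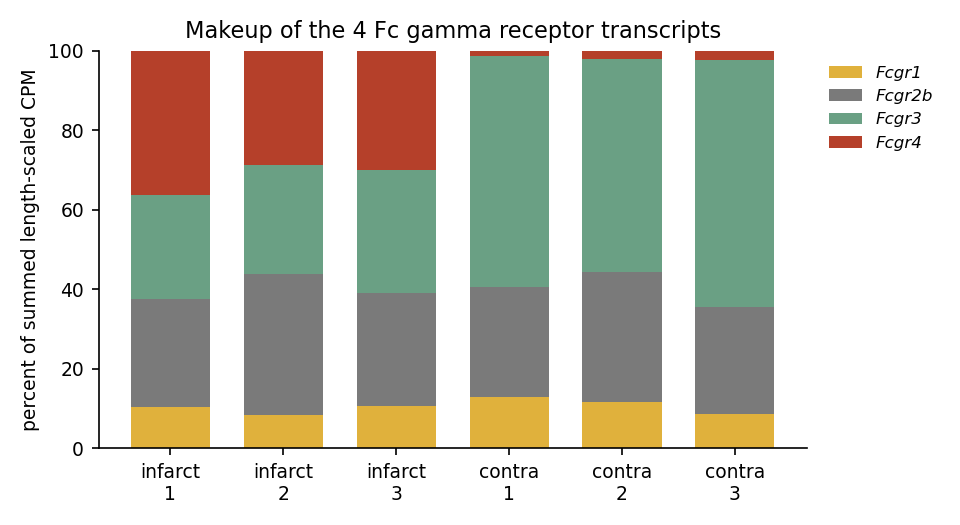
Share of each Fc gamma receptor in the summed length-scaled CPM of the 4 genes (percent, vertical axis) in each of the 6 libraries, with contralateral cortex written contra. Fcgr4 takes 28.8% to 36.3% in infarcts and 1.41% to 2.21% in contralateral cortex, and Fcgr3 the largest share in every contralateral library.

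The members were searched for 2 motifs, on both strands of the 250 bases before each RefSeq start site (GRCm38.p6). These were the PU box GAGGAA, a core to which the myeloid factor PU.1 can bind, and GAS, TTCNNNGAA, the interferon gamma-activated site. They do not overlap in these windows. The windows of Fcgr2b and Fcgr3 lie within the gene as annotated in GENCODE M21, and that of Fcrls lies mostly within it. These 3 are therefore not the bases upstream of the annotated gene. Annotated exons cover 203 bases of the Fcgr2b window, 27 of the Fcgr3 window and 136 of the Fcrls window. The motifs were chosen after the sequences had been seen. The PU box was in windows of 4 of the 8 members, Fcgr1, Fcgr3, Fcgr4 and Fcrls, and in 23.3% of 32851 windows of all genes. GAS was in the window of Fcgr1 alone among the members and in 7.02% of all windows. The windows of Fcgr2b, Fcer1g and Fcgrt, which rose as well, and of Pigr held neither motif. Shown are the 4 members with a match, as the longest run of each window free of annotated exons, on the strand of the gene, with matches in capitals (the PU box reads TTCCTC on its other strand).
Fcgr1, chr3:96293970-96294219, minus: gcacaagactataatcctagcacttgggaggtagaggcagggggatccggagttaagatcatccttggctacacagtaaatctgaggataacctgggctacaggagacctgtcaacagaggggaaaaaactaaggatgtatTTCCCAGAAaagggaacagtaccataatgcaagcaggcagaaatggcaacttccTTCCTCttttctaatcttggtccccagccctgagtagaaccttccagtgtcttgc
Fcgr3, chr1:171059404-171059626, minus: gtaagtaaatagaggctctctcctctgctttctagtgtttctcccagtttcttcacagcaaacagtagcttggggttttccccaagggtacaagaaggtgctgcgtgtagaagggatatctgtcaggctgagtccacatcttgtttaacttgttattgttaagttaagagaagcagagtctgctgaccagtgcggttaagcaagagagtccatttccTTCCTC
Fcgr4, chr1:171018676-171018919, plus: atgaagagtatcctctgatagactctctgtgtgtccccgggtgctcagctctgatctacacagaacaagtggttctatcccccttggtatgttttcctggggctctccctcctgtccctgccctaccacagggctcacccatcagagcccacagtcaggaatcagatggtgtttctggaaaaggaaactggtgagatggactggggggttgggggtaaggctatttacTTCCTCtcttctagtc
Fcrls, chr3:87263600-87263677, minus: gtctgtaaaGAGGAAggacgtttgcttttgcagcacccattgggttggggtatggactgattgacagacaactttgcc
The PU box lay 55 to 50 bases before the start site of Fcgr1 and 22 to 17 before that of Fcgr4, and GAS lay 109 to 101 bases before that of Fcgr1. Spi1, which encodes PU.1, had 222, 203 and 208 counts in infarcts and 11, 7 and 7 in contralateral cortex and was called higher at a log2 fold change of 4.80 (SE 0.26). A match is a run of letters and does not show that a factor binds.

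Fcer1g, the chain through which Fcgr1, Fcgr3 and Fcgr4 signal, rose with them. It was at 195, 132 and 152 CPM in infarcts and 5.59, 4.36 and 6.74 CPM in contralateral cortex. The means were 160 ± 31.9 and 5.56 ± 1.19 CPM (SD, n = 3 each) and the log2 fold change was 4.85 (SE 0.23, edgeR adjusted p 2.49e-07). Per length of exon, Fcer1g exceeded the sum of the 3 receptors that use it in every library, by 2.47, 2.55 and 2.96 times in infarcts and by 2.99, 3.11 and 3.17 times in contralateral cortex. The infarct ratios were all the lower ones, with a log2 difference of -0.22 (two-sided exact permutation p = 0.1, the smallest possible).

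The related adaptors of the list moved the same way. Tyrobp, the ITAM adaptor DAP12, was at 74.6, 49.6 and 49.7 CPM in infarcts and 1.98, 2.28 and 2.12 CPM in contralateral cortex, a log2 fold change of 4.76 (SE 0.24, edgeR adjusted p 3.30e-07). Its ratio to Fcer1g overlapped between regions, with a log2 difference of -0.11 (exact permutation p = 0.9). Hcst, the adaptor DAP10, had 34, 38 and 23 counts in infarcts and 0, 1 and 3 in contralateral cortex, and Cd247, the zeta chain of T and NK cells, had 110, 59 and 34 against 0, 1 and 0. All 3 were called higher.

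Fcer1g also serves receptors that do not bind immunoglobulin, and 6 of 8 listed ones were tested, since Gp6 had too few counts and Pira6 had no matching entry. Called higher were 5, and Oscar was called lower. The C-type lectin receptor gene Clec4d had 260, 154 and 222 counts in infarcts and 0 in all contralateral cortices, and was at least 75-fold higher when 3 counts are allowed in each contralateral library. Pira2, of the paired immunoglobulin-like receptors, had 290, 192 and 155 counts against 0 in all, at least 76.0-fold higher. Clec4n, which encodes Dectin-2, had the smallest rise of the 5, at a log2 fold change of 3.87 (SE 0.61). Oscar, an osteoclast-associated receptor, had 2, 5 and 5 counts in infarcts and 25, 23 and 12 in contralateral cortex, a log2 fold change of -2.13 (SE 0.48, edgeR adjusted p 0.00321).

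Fcrls was the member with the smallest change and had the second highest level per length in contralateral cortex. It was measured at 63.6, 50.5 and 65.9 CPM in infarcts and 11.8, 12.6 and 15.6 CPM in contralateral cortex. The means were 60.0 ± 8.27 and 13.3 ± 2.03 CPM (SD, n = 3 each), with a log2 fold change of 2.18 (SE 0.18, edgeR adjusted p 6.06e-06). Infarct 3 held its highest value, whereas infarct 1 was the highest for each of the other 6 tested members. Fcrls is on the minus strand at chr3:87250758-87263738.

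The change of Fcrls lay within the range of each of the microglia, macrophage and pan-myeloid marker lists. Of 9 homeostatic microglia markers, 4 were called higher and none lower, with a median log2 fold change of 0.95. They ran from P2ry12 at -0.20, which was not called, through Tmem119 at 1.79 to Olfml3 at 2.87, both called higher. Their summed level was 1001, 932 and 932 CPM in infarcts and 325, 308 and 357 CPM in contralateral cortex, and none was at 0. Of 8 markers of monocyte-derived and border macrophages, 7 were called higher, with a median of 5.33, and their sum was 729, 568 and 396 CPM against 32.2, 26.8 and 29.2 CPM. Ly6c2, of inflammatory monocytes, had the largest of these changes, with 572, 605 and 172 counts against 1, 0 and 4, and Cd163, of border macrophages, was not called, at 0.46. Lyve1 and F13a1, at 2.09 and 2.12, and the pan-myeloid Csf1r, at 1.96, were the macrophage and pan-myeloid markers closest to Fcrls.

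Fcrls was also set against Fcgr2b within each library. For each count of Fcgr2b there were 0.326, 0.269 and 0.487 counts of Fcrls in infarcts and 2.5, 2.80 and 3.02 in contralateral cortex. All 3 infarcts were below all 3 contralateral cortices. These are ratios of counts, not scaled for length, and per kilobase of exon Fcrls was above Fcgr2b in infarct 3, at 28.2 against 23.4 CPM. The log2 ratio differed by -2.98, or 7.90-fold (two-sided exact permutation p = 0.1, the smallest possible). Set against the mean log2 level of the 9 pan-myeloid markers, with 0.5 CPM added, the infarct minus contralateral log2 difference was -2.31 for Fcrls, -0.60 for Fcgr3 and 0.58 for Fcgr2b, with no overlap of the regions for these 3 (exact permutation p = 0.1 each). That of Fcgr4 was 1.67 (exact permutation p = 0.1), and 3.23 with 0.1 CPM added, since its contralateral level lies below the added value. Fcer1g differed by 0.29 (exact permutation p = 0.2) and Fcgr1 by -0.17 (exact permutation p = 0.3), and the sign of the latter turned to 0.16 with 0.1 CPM added. With 6 ratios of this kind, no p could pass an adjustment.

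**Figure D3:**
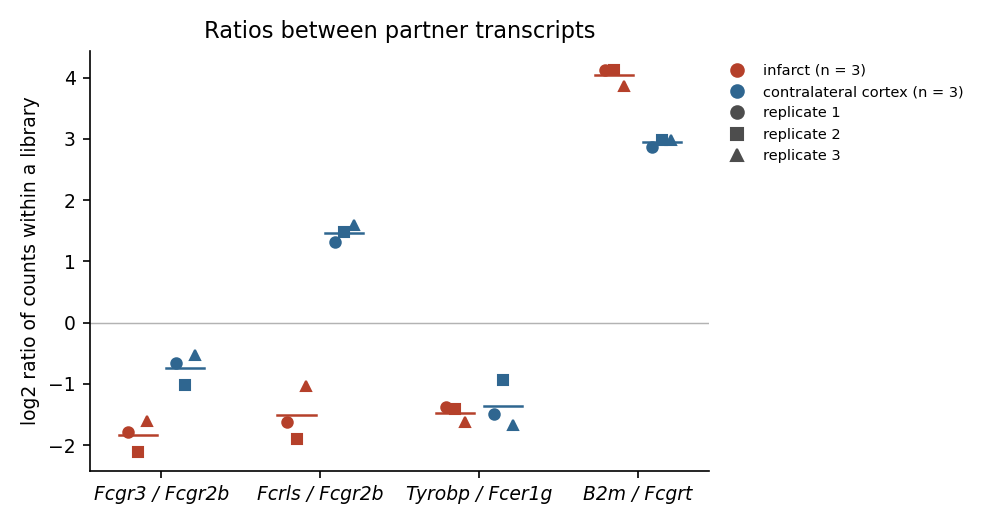
Log2 ratio of the counts of 2 genes within each library (vertical axis) for 4 pairs. Red points are infarcts, blue points contralateral cortices, shapes are replicate numbers and lines are means. The regions are apart for Fcgr3 to Fcgr2b, Fcrls to Fcgr2b and B2m to Fcgrt and overlap for Tyrobp to Fcer1g.

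Of the transport receptors, Fcgrt was found in both regions and Pigr in neither at a level that could be tested. Fcgrt was at 95.9, 74.7 and 77.0 CPM in infarcts and 9.98, 7.75 and 11.4 CPM in contralateral cortex. The means were 82.5 ± 11.6 and 9.69 ± 1.82 CPM (SD, n = 3 each), a log2 fold change of 3.09 (SE 0.20, edgeR adjusted p 1.04e-06). Fcgrt is on the minus strand at chr7:45092990-45103851. B2m, its light chain and that of class I MHC molecules, was at 1667, 1306 and 1126 CPM in infarcts and 72.8, 61.3 and 89.9 CPM in contralateral cortex, a log2 fold change of 4.19 (SE 0.24, edgeR adjusted p 5.23e-07). There were 17.4, 17.5 and 14.6 counts of B2m for each count of Fcgrt in infarcts and 7.29, 7.92 and 7.92 in contralateral cortex, a log2 difference of 1.09 (two-sided exact permutation p = 0.1, the smallest possible). Of 8 markers of endothelium, where FcRn is known to act, 3 were called higher, and their sum was 625, 503 and 460 CPM in infarcts and 356, 405 and 366 CPM in contralateral cortex, with none at 0. Their part in the level of Fcgrt was not tested.

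Unlike Fcgrt, no tested vesicle gene listed with the transport receptors was called higher. Of 7 tested genes of that list, the light chain gene B2m was the 1 called higher. The recycling GTPase Rab11a had 150, 187 and 171 CPM in infarcts and 372, 437 and 442 CPM in contralateral cortex, a log2 fold change of -1.30 (SE 0.16, edgeR adjusted p 6.14e-05). Rab4a, of early endosomes, and Rab3b, of regulated secretion, were also called lower, at -1.54 and -1.90. Rab11b, Rab11fip5 and Myo5b were not called, at 0.18, -0.02 and -1.28, and leaving out infarct 3 brought Myo5b to -2.24 and past the threshold (edgeR adjusted p 0.00023). Cortical neurons use these GTPases too, and the neuron markers were summed to 455, 645 and 1199 CPM in infarcts and 7039, 7531 and 8137 CPM in contralateral cortex, with Syt1 the most abundant and none at 0. The part of neuron content in these values was not tested.

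Pigr, at chr1:130826684-130852249 on the plus strand, had 0, 3 and 2 counts in infarcts and 1, 0 and 0 in contralateral cortex. The regions overlap, and the ratio of summed counts scaled by library size was 5.55 with an exact 95% interval of 0.621 to 263. Without the filter on low counts, edgeR gave a log2 fold change of 2.13 (SE 1.66, adjusted p 0.328). No difference was detectable at this depth. Of 9 choroid plexus and epithelial markers, 6 were tested and 4 called higher, led in level by Cdh1, which had 520, 389 and 398 counts in infarcts and 69, 36 and 53 in contralateral cortex. Ttr, the most abundant transcript of choroid plexus, had 0, 3 and 3 counts in infarcts and 0 in all contralateral cortices.

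Levels of the members were set in order as CPM per kilobase of exon. In infarcts Fcer1g was highest at 183 ± 36.4, above Fcgrt at 39.3 ± 5.54, Fcgr4 at 32.0 ± 11.2, Fcgr2b at 29.8 ± 5.61, Fcgr3 at 27.7 ± 4.20 and Fcrls at 25.7 ± 3.55 (SD, n = 3 each). From Fcgrt down to Fcrls each neighbor overlapped the next, and the order of Fcgr4, Fcgr2b, Fcgr3 and Fcrls was within the spread. The lowest Fcgrt library, at 35.5, lay above every infarct library of Fcgr2b, Fcgr3 and Fcrls. With the longest transcript in place of all exon bases, Fcgr2b came to the second place. Fcgr1 at 9.76 ± 2.65 and Pigr at 0.0295 ± 0.0276 were apart from the rest and from each other. In contralateral cortex Fcer1g at 6.36 ± 1.36, Fcrls at 5.70 ± 0.868 and Fcgrt at 4.61 ± 0.865 overlapped as neighbors. Below them, with no overlap between tested neighbors, came Fcgr3 at 1.69 ± 0.400, Fcgr2b at 0.827 ± 0.0597, Fcgr1 at 0.315 ± 0.0593 and Fcgr4 at 0.0556 ± 0.0163.

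The ligands were present as transcripts in the same tissue. Of 13 immunoglobulin constant genes and J chain, 12 were tested and all 12 were called higher in infarcts. Their summed level was 7385, 3532 and 1155 CPM in infarcts 1, 2 and 3 and 11.1, 15.2 and 31.0 CPM in contralateral cortex, while the 4 Fc gamma receptors summed to 341, 285 and 233 CPM and to 8.72, 7.49 and 9.60 CPM. The infarcts thus ranged more widely in ligand than in receptor transcripts. The median log2 fold change of the 12 genes was 8.53, and 6.73 with the 4 genes at 0 in all contralateral libraries set to their lower bound.

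**Figure D4:**
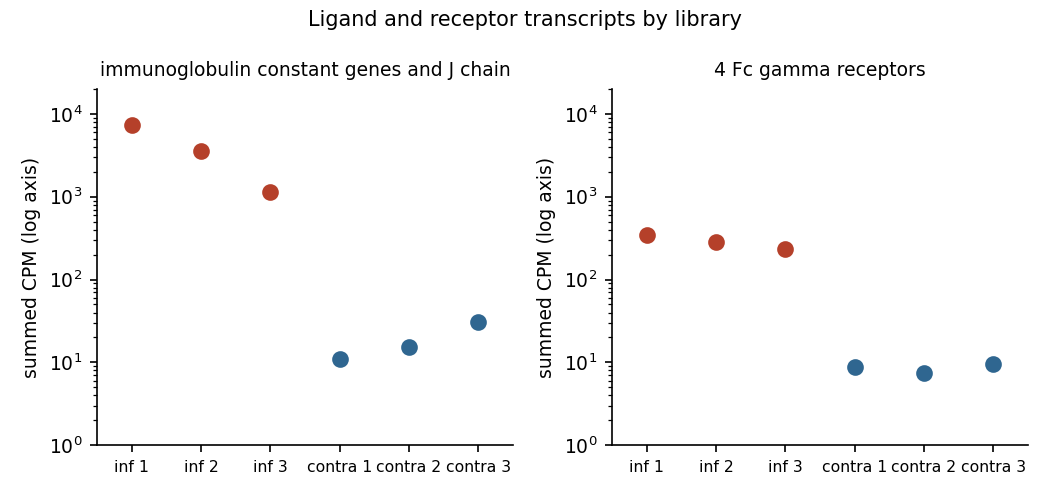
Summed CPM (log axes of equal range) of 13 immunoglobulin constant genes and J chain, left, and of the 4 Fc gamma receptors, right, in infarcts (inf, red) and contralateral cortices (contra, blue) by replicate. The infarcts span 1155 to 7385 CPM on the left and 233 to 341 CPM on the right.

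Among the heavy chains, Ighm had the most counts in infarcts 1 and 2 and Ighg1 in infarct 3. Of the IgG genes, Ighg2c, the IgG2c of C57BL/6 mice and a ligand of Fcgr1 and Fcgr4, had 3169, 1247 and 49 counts in infarcts 1, 2 and 3, beside 43, 25 and 29 in contralateral cortex. Ighg2b, another ligand of Fcgr4, had 538, 1639 and 86 counts. Ighg1, a ligand of Fcgr2b and Fcgr3 but not of Fcgr4, had 91, 84 and 2545 counts in infarcts and 0, 0 and 17 in contralateral cortex. Infarct 3 was thus the lowest for Ighg2b and Ighg2c and the highest for Ighg1. Of the receptors, Fcgr2b and Fcgr4 were lowest in infarct 3, and Fcgr1 and Fcgr3 were lowest in infarct 2. The rises of Ighg1 and Ighg2c (log2 fold changes of 7.25 and 5.74, edgeR adjusted p 0.0361 and 0.0242) were not called in 4 of the 6 fits that left out a library, those without infarct 1 and without each of the contralateral cortices. In those fits the log2 fold change of Ighg1 ran from 6.46 without contralateral cortex 1 to 12.88 without contralateral cortex 3, and that of Ighg2c from 4.47 without infarct 1 to 5.88 without contralateral cortex 3.

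Of the ligands of the transport receptors, Igha had 505, 631 and 515 counts in infarcts and 0 in all contralateral cortices, at least 194-fold higher. Ighm had 19500, 12165 and 1484 counts against 131, 171 and 150, a log2 fold change of 6.33 (SE 1.14, edgeR adjusted p 0.00395). Jchain, which links polymeric IgA and IgM into the form that the Pigr product carries, had 25142, 9848 and 2370 counts against 22, 28 and 37 (log2 fold change 8.88, SE 1.27). Ighm and Jchain were most abundant in infarct 1 and least in infarct 3, and Igha was even over the infarcts. Igha, Ighm and Jchain were thus found in infarcts whose libraries held 5 Pigr counts in all.

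Other Fc receptor genes were tested in 6 of 11 cases, and all 6 were called higher, with a median log2 fold change of 6.59, or 4.27 with Fcmr and Fcrl5 at their lower bounds. The IgM receptor Fcmr had 144, 58 and 99 counts in infarcts and 0 in all contralateral cortices, at least 35.8-fold higher. Fcrla, an Fc receptor-like gene of B cells, had 259, 143 and 102 counts against 0, 1 and 0, a ratio of summed scaled counts of 560 with an exact 95% interval of 100.004 to 22151. Fcer2a, the low-affinity IgE receptor CD23, had the smallest rise, 74, 56 and 63 counts against 51, 17 and 12 (log2 fold change 1.51, SE 0.40, edgeR adjusted p 0.00742), and was not called against a 2-fold change (glmTreat adjusted p 0.1). Trim21, a cytosolic receptor for antibody, rose by 3.39 (SE 0.23). The high-affinity IgE receptor subunits Fcer1a and Ms4a2 were near 0, with 2, 2 and 1 and with 0, 3 and 0 counts in infarcts and 0 in contralateral cortex.

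Markers of other cell types that can carry these receptors are given as transcript levels. Of 8 B cell and plasma cell markers, 7 were tested and all 7 called higher. Their sum was 439, 265 and 210 CPM in infarcts and 1.72, 1.43 and 2.86 CPM in contralateral cortex, with Sdc1 the most abundant. NK cell markers summed to 25.4, 24.0 and 12.2 CPM against 0.209, 0 and 0 CPM, with 5 of 5 tested genes called higher and Klrb1c, the most abundant, at 0 in contralateral cortex with Klre1, Eomes and Gzma. Neutrophil markers summed to 72.7, 65.5 and 57.1 CPM against 4.75, 5.73 and 6.37 CPM, most of it Csf3r. All 5 tested of the 8 were called higher, with a median log2 fold change of 4.71, and Ly6g, too low to test, had 0, 2 and 0 counts in infarcts. Of 6 mast cell markers, 3 were tested and 2 called higher, and the proteases Mcpt4, Tpsb2 and Cma1 had at most 25 counts in any library. Dendritic cell markers were called higher in 4 of 6, from Cd209a at a log2 fold change of 2.13 to Itgax at 9.14, and Flt3 and Zbtb46 were not called, at -0.54 and -0.39. The part of any of these cell types in the level of a receptor was not tested.

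Downstream of the receptors, 42 signaling genes were listed and tested, of which 35 were called higher, none lower and 7 not called, with a median log2 fold change of 3.94. Among the kinases, 5 of 6 were called higher. Syk, which docks to phosphorylated ITAMs, was at 189, 153 and 126 CPM in infarcts and 4.60, 3.45 and 3.88 CPM in contralateral cortex, a log2 fold change of 5.28 (SE 0.22, edgeR adjusted p 1.64e-07). The Src-family gene Fgr had 723, 668 and 581 counts against 0, 0 and 1. Fyn, a Src-family kinase also made by neurons and oligodendrocytes, was not called, at -0.42 (SE 0.14).

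The other signaling groups were alike in direction. Adaptors were called higher in 6 of 8, from Gab2 at a log2 fold change of 1.88 to Lat at 5.78, and Grb2 and Cbl were not called. Lat was low, with 29, 23 and 15 counts in infarcts and 1, 0 and 0 in contralateral cortex. Leaving out infarct 2 brought Cbl to 1.13 and past the threshold (edgeR adjusted p 0.00288). Lipid kinases, phospholipases and exchange factors were called higher in 8 of 10, led by Pik3r5 at 4.40, and Plcg1 and Pik3r1, at -0.14 and -0.39, were not called. Actin and oxidase effectors were called higher in 9 of 10. Cybb, the catalytic subunit of the phagocyte oxidase, was at 975, 752 and 542 CPM in infarcts and 2.46, 1.89 and 2.86 CPM in contralateral cortex, a log2 fold change of 8.31 (SE 0.32, edgeR adjusted p 1.64e-07), and Rac1, used by most cells, was not called at 0.24. Cdc42, another widely used GTPase, was called higher at 1.12.

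The inhibitory enzymes and adaptors that can act below Fcgr2b were called higher in 7 of 8, with a median of 2.64, and Ptpn11, the phosphatase SHP-2, was not called at 0.17. Inpp5d encodes SHIP1, the phosphatase that the Fcgr2b product recruits, and was at 99.7, 87.7 and 77.2 CPM in infarcts and 14.3, 9.25 and 13.8 CPM in contralateral cortex, a log2 fold change of 2.83 (SE 0.21, edgeR adjusted p 2.37e-06). Ptpn6, the phosphatase SHP-1, was at 65.9, 48.5 and 44.2 CPM against 2.82, 1.43 and 2.21 CPM. Dok1 had the largest change of this group at 4.62 (SE 0.32), and Inppl1, encoding SHIP2, the smallest called one at 1.18 (SE 0.16). Inppl1, Dok3 and Cdc42 were not called against a 2-fold change (glmTreat adjusted p 0.119, 0.0874 and 0.216), which left 32 of the 42 signaling genes.

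**Figure D5:**
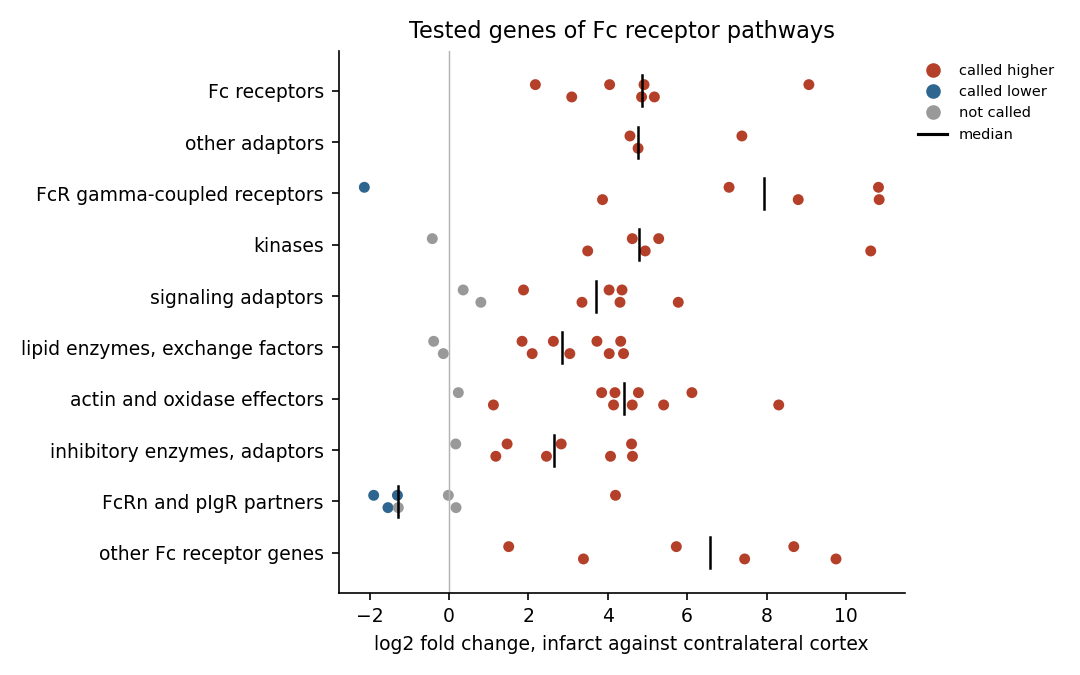
Log2 fold change of infarct against contralateral cortex (horizontal axis) for each tested gene of the Fc receptor lists (rows). Red is called higher, blue called lower, gray not called, and black bars are list medians. The 7 Fc receptors lie between 2.18 and 9.07, and the genes called lower are Oscar, Rab11a, Rab4a and Rab3b.

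Patterns over the 6 libraries were alike in many genes because the regions differ so much, and likeness is given as a description. The gene closest to Fcgr3 by Pearson's r of log2 CPM was Fcgrt (r = 0.9998), followed by Itgax and Tnfrsf1a. Those closest to Fcgr4 were Msn, Tnfrsf1b and Rnh1, and those closest to Fcer1g were Vat1, Anxa2 and Bgn. Fcgr1 was most like Ighd, Dpp7 and Cyba, and Fcgr2b most like Tfpi, Ror1 and Epsti1. Fcgrt was most like F11r, Fcgr3 and Hexa, and Fcrls most like Maff, Tal1 and Hvcn1, with r of 0.9989 or more in each case over 6 libraries that share the contrast of regions.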

How the data were processed

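Stranded mRNA libraries were sequenced as paired reads. The authors trimmed them with Trimmomatic 0.32, aligned to GRCm38 with STAR 2.5.2b and deposited raw counts per Ensembl gene from htseq-count, whose version, annotation and strand setting are not given in the sources used here. Genes took up 65.7% to 73.4% of the reads tallied per library, and the separate entries for unassigned reads were left out. Identifiers were matched to GENCODE M21, in which 45143 were found and 935 were not.

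Counts were analyzed with edgeR 4.0.16 in R 4.3.3 (filterByExpr, TMM, robust glmQLFit and glmQLFTest, region as the only term). The biological coefficient of variation was 0.22. Genes were called at a Benjamini-Hochberg adjusted p under 0.05 over all tested genes and a log2 fold change beyond 1. CPM are TMM-scaled, and the SE is the size of the log2 fold change divided by the square root of the quasi-likelihood F statistic. Lower bounds set each library at 0 to 3 counts. Ratios were compared by two-sided exact permutation. Intervals and bounds cover counting error only. Tables were made with Python 3.11.15 and pandas 2.3.3 and plots with matplotlib 3.10.9.

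The members and gene lists were chosen with earlier results of these data known. Named in the text are all members, the genes with the largest and smallest change of each list, called genes that moved against their list, direct partners and ligands, the most abundant cell type markers and markers at 0. Others, such as the IgG genes and Spi1, were picked with their values already in view, as were the ratios of B2m, Tyrobp, Fcer1g and Fcrls, and the shares of Fc gamma receptors. Results for some listed markers are not reported here. Alternatives were RLE factors, library totals, no filter, at least 10 counts in every library, glmTreat, no fold threshold, a replicate block, DESeq2 1.42.0, and each library left out in turn.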

Additional observations from a re-analysis of the deposited data

How the results depend on the processing

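All 7 tested members were called higher under each alternative that could be fitted for them. Over the 89 member log2 fold changes from these alternatives, the lowest was 2.08 for Fcrls and the highest 9.26 for Fcgr4. A minimum of 10 counts in every library left Fcgr1 and Fcgr4 untested. With it 25 signaling genes were called higher, as were 2 of the other Fc receptors, 3 immunoglobulin genes and 1 adaptor. Of the receptors coupled to the FcR gamma chain, 0 were called higher and 0 lower. These counts were smaller because fewer genes were tested. Without a fold threshold 2 signaling genes, Fyn and Pik3r1, were called lower. Scaling by library totals shifted the median over all tested genes by 0.20 (log2) and changed no member's call. It gave 4528 genes higher and 2766 lower, beside 3999 and 3256 in the main fit. Adding 0.1 CPM turned the ratio of Fcgr1 to pan-myeloid markers to 0.157 and moved that of Fcgr4 to 3.23, and the longest transcript moved 4 infarct ranks of the level order. Leaving out 1 library gave 4028 to 4174 genes higher and 3145 to 3608 lower, and 10 to 12 immunoglobulin genes higher. Without the filter on low counts Ighg1, Ighg2c and Ighg3 were not called, and DESeq2 gave Ighg1 no adjusted p. Against a 2-fold change Ighg1 was not called (glmTreat adjusted p 0.0662), which left 11 immunoglobulin genes higher.

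Replicate numbers are shared between regions. The deviations of same-numbered libraries from their region means had r of -0.205, 0.111 and 0.0225, and those of differently numbered libraries ran from -0.27 to 0.19. Infarct and opposite cortex of the same mouse need not deviate together, so these values do not tell whether the numbers pair the libraries. With the replicate number as a block, 3945 genes were higher and 3222 lower, all 7 tested members were higher, Fcgr3 against Fcgr2b differed by -1.10, and no count of a list given here changed. Depth limits Pigr, and the contralateral values of Fcgr1 and Fcgr4. With 3 libraries a region, no ratio could reach a p under 0.1.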
